A study of Mus musculus with 6 samples.

Results

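Endothelial genes were followed in RNA from whole mouse aorta. The set holds 37 genes for endothelial adhesion proteins, receptors, transcription factors, secreted proteins and channels, picked by gene symbol, and all 37 were found once among the 29752 genes of each library. The study compared 3 libraries from wild-type C57BL/6 mice with 3 from C57BL/6 mice heterozygous for Palmd (PALMD+/-), all at an age of 15 weeks after 7 weeks of normal diet begun at 8 weeks. Palmd encodes palmdelphin, a relative of the paralemmins. Neither the altered part of Palmd, nor the cells concerned, nor whether each library came from 1 animal is given, so p-values measure the spread between these samples.

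The endothelium is the single cell layer that lines every vessel. Its cells hold together through VE-cadherin (Cdh5) and PECAM-1 (Pecam1), sense growth factors through the VEGF and TIE receptors, and keep their identity through ETS and SOX transcription factors. Arterial endothelium is known for the connexins Gja4 and Gja5 and for Sox17, while the endothelium of fat capillaries is known for Gpihbp1, the anchor of lipoprotein lipase, and lymphatic endothelium for Prox1. A whole aorta carries both kinds of lining, the large-artery intima and the small vessels of its adventitia and of any fat left attached.

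Values are FPKM, reads scaled by gene length and by library. The numbers of reads behind them were nearly equal, from 17283951 to 18372131 per library. For a gene 2 kb long, a single read equals 0.0272 to 0.0289 FPKM. Per library, always in the order of replicates 1, 2 and 3, Palmd itself was at 5.49, 7.88 and 10.1 FPKM in wild type, against 5.31, 7.19 and 6.21 FPKM with the heterozygous genotype, and the groups overlapped. Heterozygote replicate 2 stood apart, with a mean correlation of 0.930 to the other libraries against 0.960 to 0.971 for those. Its summed smooth muscle markers (6 of 6 detected) reached 4721 FPKM, against 7062 to 10179 in the other libraries. Its summed white adipocyte markers (9 of 9 detected) reached 4765 FPKM, against 1499 to 3644, and its Schwann cell markers (4 of 4 detected) 59.3 FPKM, against 7.33 to 14.4. The comparisons over the members are also given without it.

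The defining endothelial genes were abundant, so the label of the set holds in this tissue. In wild type 15 members had a mean of at least 50 FPKM, 14 a mean of 10 to 50 and 8 a mean under 10. Pecam1 was the most abundant at 393 ± 27.7 FPKM (SD, n = 3), followed by the flow-induced transcription factor Klf2 at 174 ± 15.9 FPKM. Plvap, the diaphragm protein of fenestrae and caveolae, Aqp1, a water channel, Vwf, the clotting glycoprotein of endothelial granules, and Gja4 came next at 111 ± 16.2, 109 ± 12.98, 106 ± 6.55 and 105 ± 13.9 FPKM, which do not differ beyond their spread. At the low end Prox1 was at 0.439 ± 0.0835 FPKM and Aplnr, the apelin receptor, at 2.02 ± 0.173 FPKM. Of the 37 genes, 31 share no exon base with another annotated gene. Ramp2 shares 33.4% of its exon bases with Vps25 on the same strand, so reads there cannot be assigned by strand. Sox17 shares 16.8% with a gene on the opposite strand. Since the library kit is not described as keeping strand, reads there cannot be assigned with certainty either. Egfl7 shares 11.2% with Agpat2, Gm20532 and the genes of miR-126.

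No member passed the test between genotypes. Of 12620 genes tested with limma on log2(FPKM + 1), with adjustment over all of them, 0 genes (0%) were called and 820 (6.5%) had an unadjusted p under 0.05. Among members, 36 passed the filter of 1 FPKM in at least 3 libraries, and 0 of these were called, with limma adjusted p from 0.548 to 0.999. Prox1 did not pass that filter. An unadjusted p under 0.05 was reached by 2 members, Sox18 and Egfl7, both lower in heterozygotes, where 2.44% of all genes were lower by that measure and 4.06% higher. The log2 fold change was below 0 for 30 of 36 members, which is 83.3% against 46.9% of all tested genes. Its median was -0.35, where the median over all tested genes was 0.01. Without heterozygote replicate 2 the median of the members was -0.03, beside 0.03 for all genes, and again no member was called, although 9 were lower at an unadjusted p under 0.05 (25% of members, 6.06% of all genes) and 3 higher (8.33% of members, 7.9% of all genes).

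**Figure D1:**
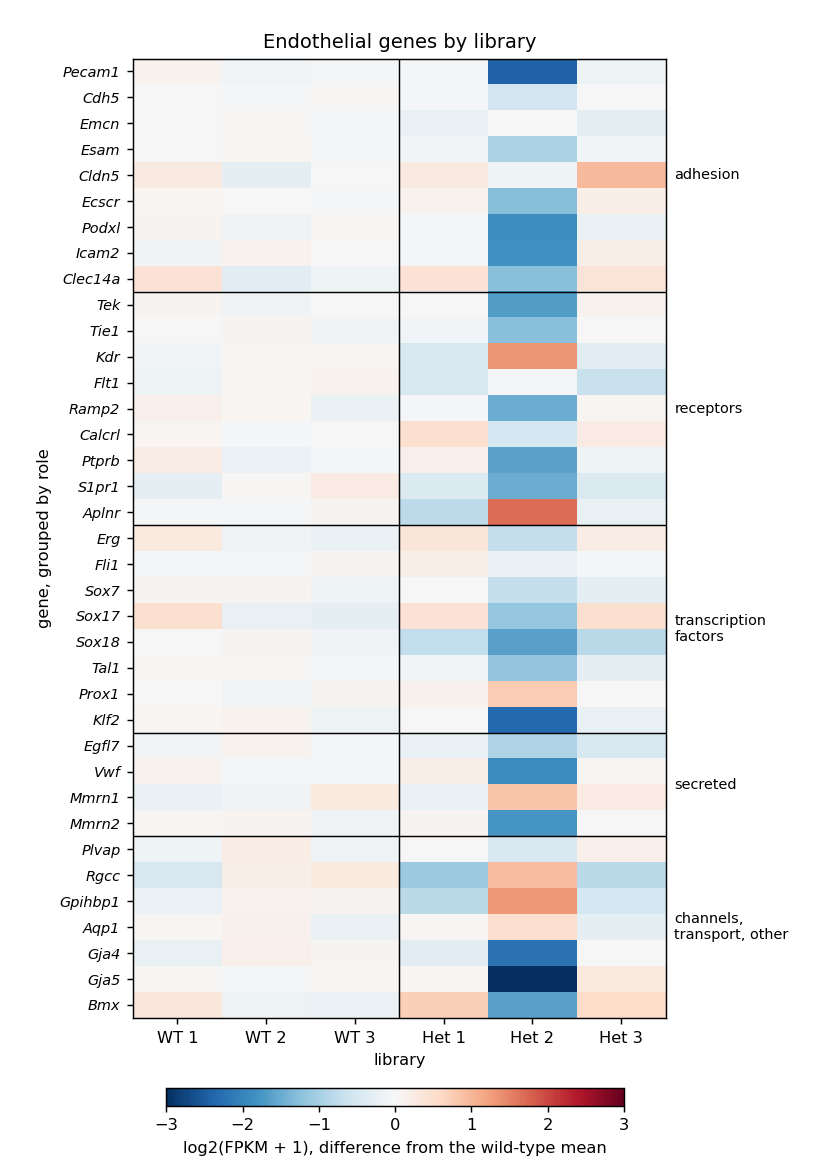
Difference of each library from the wild-type mean on log2(FPKM + 1), for the 37 endothelial genes in rows, grouped by role, and the 6 libraries in columns. Blue is lower and red higher. The column of heterozygote replicate 2 is blue for most genes and red for Kdr, Aplnr, Gpihbp1, Rgcc, Mmrn1, Prox1 and Aqp1.

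The lower median moved with 1 library. Heterozygote replicate 2 was the lowest of the 6 libraries for 27 of 36 tested members, or 75% of them, where the same library was the lowest for 34.3% of all genes. It was the highest for 6 members, or 16.7%, against 26.4% of all genes. It lay under 50% of the next lowest library for 18 members, or 50% of them, against 2.12% of all genes. In the opposite direction it exceeded 1.5 times the next highest library for 5 tested members, or 13.9%, against 5.42% of all genes, and for the untested Prox1 as well. These limits of 50% and 1.5 times were set after the values had been seen. In bulk tissue, fewer endothelial cells and less of a transcript per cell cannot be told apart.

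Among the adhesion and junction proteins, Pecam1 (chromosome 11, 106654217 to 106750628, GRCm38) was at 424, 372 and 382 FPKM in the wild-type libraries, against 375, 72.0 and 352 FPKM in the heterozygous ones. Heterozygote replicate 2 was far the lowest, at 20.4% of the next lowest library, heterozygote replicate 3, which was slightly below the wild-type range. Heterozygote replicate 1 lay inside that range, so the groups overlapped. The log2 fold change of Pecam1 came to -0.88 (SE 0.63, limma adjusted p = 0.888), and -0.11 (SE 0.12) without heterozygote replicate 2. Cdh5, the adherens junction cadherin, was less low in the same library. It was at 79.8, 75.7 and 80.9 FPKM in the wild-type libraries, against 76.5, 52.6 and 79.6 FPKM in the heterozygous ones, so that heterozygote replicate 2 kept 69.5% of the next lowest value. Icam2, a ligand of leukocyte integrins, and the sialomucin Podxl were at 28.2% and 30.6% of the next lowest library there. Ecscr and Clec14a, membrane glycoproteins of angiogenic endothelium, were at 39.9% and 49.1%. Emcn, a sialomucin of capillaries and veins, was not low in that library, with 5.45, 5.63 and 5.37 FPKM in wild type and 4.59, 5.43 and 4.25 FPKM in heterozygotes. Cldn5, a tight junction claudin, differed most by heterozygote replicate 3, at 98.2 FPKM against 40.4 to 60.6 FPKM in the other libraries. Esam, an adhesion molecule of endothelial tight junctions, was at 42.3, 44.5 and 40.8 FPKM in the wild-type libraries, against 40.2, 21.5 and 40.4 FPKM in the heterozygous ones. Its groups did not overlap, but 2 of the heterozygote values lay just below the lowest wild-type value.

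The receptors divided. Tek, the angiopoietin receptor TIE2, was at 62.7, 54.6 and 59.5 FPKM in the wild-type libraries, against 58.2, 17.6 and 63.7 FPKM in the heterozygous ones. Its partner Tie1 was at 78.8, 83.2 and 72.7 FPKM and at 74.0, 32.4 and 76.9 FPKM, and the phosphatase Ptprb, which acts on TIE2 and VE-cadherin, was at 35.6% of the next lowest library in heterozygote replicate 2. All 3 were thus low in heterozygote replicate 2 and level with wild type in the others (log2 fold changes without it of 0.05, -0.05 and 0.00). Kdr, the main signalling receptor for VEGF-A (chromosome 5, 75932827 to 75978458), went the other way. It was at 4.82, 5.30 and 5.42 FPKM in the wild-type libraries, against 3.43, 14.6 and 3.95 FPKM in the heterozygous ones. Heterozygote replicate 2 held the highest value, 2.69 times the next, and heterozygote replicates 1 and 3 held the lowest. The sign of its log2 fold change turned with that library, from 0.18 (SE 0.46) to -0.40 (SE 0.10, limma adjusted p = 0.274) without it. Flt1, the decoy receptor for VEGF-A, was at 6.39, 7.39 and 7.87 FPKM in the wild-type libraries, against 4.87, 6.81 and 4.14 FPKM in the heterozygous ones, with a log2 fold change of -0.41 (SE 0.17), and -0.58 (SE 0.12, limma adjusted p = 0.234) without heterozygote replicate 2.

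Both genes of the adrenomedullin receptor pair were lowest in heterozygote replicate 2, and they parted in heterozygote replicates 1 and 3. Calcrl, the receptor, was at 11.4, 10.6 and 10.9 FPKM in the wild-type libraries, against 15.9, 7.28 and 13.3 FPKM in the heterozygous ones, so that heterozygote replicates 1 and 3 were the highest libraries. Its log2 fold change was 0.07 (SE 0.26, limma adjusted p = 0.986), and 0.37 (SE 0.11, limma adjusted p = 0.288) without heterozygote replicate 2. Ramp2, the chain that makes Calcrl an adrenomedullin receptor, was at 38.4 and 41.1 FPKM in heterozygote replicates 1 and 3, within the wild-type range of 34.3 to 44.2 FPKM, and at 13.5 FPKM in heterozygote replicate 2. S1pr1, the sphingosine-1-phosphate receptor that stabilises junctions, was lower in every heterozygote library. It was at 67.7, 84.8 and 98.7 FPKM in the wild-type libraries, against 62.4, 29.0 and 61.5 FPKM in the heterozygous ones (limma log2 fold change -0.77, SE 0.32, with adjusted p = 0.770), and its log2 fold change was -0.41 (SE 0.16) without heterozygote replicate 2. Aplnr was at 1.95, 1.90 and 2.22 FPKM in the wild-type libraries, against 0.740, 8.63 and 1.58 FPKM in the heterozygous ones. That is 129 to 148 reads in wild type and 50, 552 and 107 reads in heterozygotes, with both heterozygote extremes outside the wild-type range.

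Sox18 had the smallest p of the members between genotypes. It encodes a SOXF transcription factor of vascular and lymphatic development (ENSMUSG00000046470, chromosome 2, 181669836 to 181671640). It was at 78.2, 83.2 and 73.0 FPKM in the wild-type libraries, against 46.1, 24.6 and 44.1 FPKM in the heterozygous ones. All heterozygote libraries were below all wild-type libraries, with means of 78.1 ± 5.11 and 38.3 ± 11.9 FPKM (SD, n = 3). Its log2 fold change of -1.06 (SE 0.25) had a 95% interval of -1.66 to -0.46. It did not pass over all genes (limma adjusted p = 0.548), and an exact permutation test (two-sided) gave p = 0.1, the smallest that 3 against 3 can give. It was still -0.78 (SE 0.10, limma adjusted p = 0.172) without heterozygote replicate 2. Once the level of white adipocyte markers entered the fit it was -1.12 (limma adjusted p = 0.0588), in a fit where 2296 of all genes had an unadjusted p under 0.05, and it was -0.88 (limma adjusted p = 0.323) with that term and without heterozygote replicate 2. The adjusted p of Sox18 lay between 0.0588 and 1 over all alternatives. Relative to Cdh5 in the same library, Sox18 was at 0.980, 1.0997 and 0.902 in wild type and at 0.603, 0.467 and 0.554 in heterozygotes, without overlap. Cdh5 varied little outside heterozygote replicate 2 (75.7 to 80.9 FPKM), so this ratio largely restates the Sox18 values and is no separate evidence.

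Values of the other SOXF factors overlapped between the genotypes. Sox17 was at 23.8, 14.2 and 13.8 FPKM in the wild-type libraries, against 23.1, 6.90 and 23.7 FPKM in the heterozygous ones, so that wild type replicate 1 sat with heterozygote replicates 1 and 3. Sox7 was at 10.8, 10.97 and 9.02 FPKM in the wild-type libraries, against 10.1, 5.89 and 8.10 FPKM in the heterozygous ones. The ETS factor Erg followed Sox17, with wild type replicate 1 at 38.0 FPKM near heterozygote replicates 1 and 3 at 39.6 and 35.7 FPKM, wild type replicates 2 and 3 at 28.5 and 26.6 FPKM, and heterozygote replicate 2 at 18.3 FPKM. Fli1, an ETS factor of endothelial and blood cells, varied least of these factors, from 9.05 to 11.9 FPKM over all libraries. Klf2 was at 180, 186 and 156 FPKM in the wild-type libraries, against 171, 33.7 and 149 FPKM in the heterozygous ones, where heterozygote replicate 2 had 22.6% of the next lowest value. Tal1, a factor of blood and endothelial progenitors, was at 5.46, 5.52 and 5.07 FPKM in the wild-type libraries, against 4.99, 1.80 and 4.21 FPKM in the heterozygous ones. Its groups did not overlap, but heterozygote replicate 1 lay just below the lowest wild-type value. The log2 fold change of Tal1 was -0.52 (SE 0.28, limma adjusted p = 0.824), and -0.18 (SE 0.11) without heterozygote replicate 2.

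Of the secreted proteins, Vwf was at 114, 103 and 102 FPKM in the wild-type libraries, against 122, 27.6 and 109 FPKM in the heterozygous ones. Mmrn2, a matrix protein that binds CLEC14A, followed it with 21.1 FPKM in heterozygote replicate 2 and 68.9 to 78.3 FPKM elsewhere. Platelets also hold Vwf, and the 6 platelet markers, of which none was at 0 in all libraries, summed to 28.7 FPKM in heterozygote replicate 2, inside the range of 24.4 to 36.7 FPKM of the others. Pf4 made up 24.6 FPKM of that sum, Gp9 was at 0 there, and only 2 of the 6 passed the filter. The sum thus says little of the other platelet markers. Egfl7, a secreted protein whose gene hosts the microRNA miR-126, was at 33.3, 38.2 and 34.5 FPKM in the wild-type libraries, against 30.6, 18.05 and 25.2 FPKM in the heterozygous ones. Its groups did not overlap (limma log2 fold change -0.53, SE 0.20, with adjusted p = 0.731), and the value was -0.33 (SE 0.12) without heterozygote replicate 2. In all, the groups did not overlap for 5 of 36 tested members, Esam, Egfl7, Sox18, Tal1 and S1pr1, all lower in heterozygotes. That is 13.9% of members, where 5.12% of all genes were lower and 7.8% higher without overlap.

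**Figure D2:**
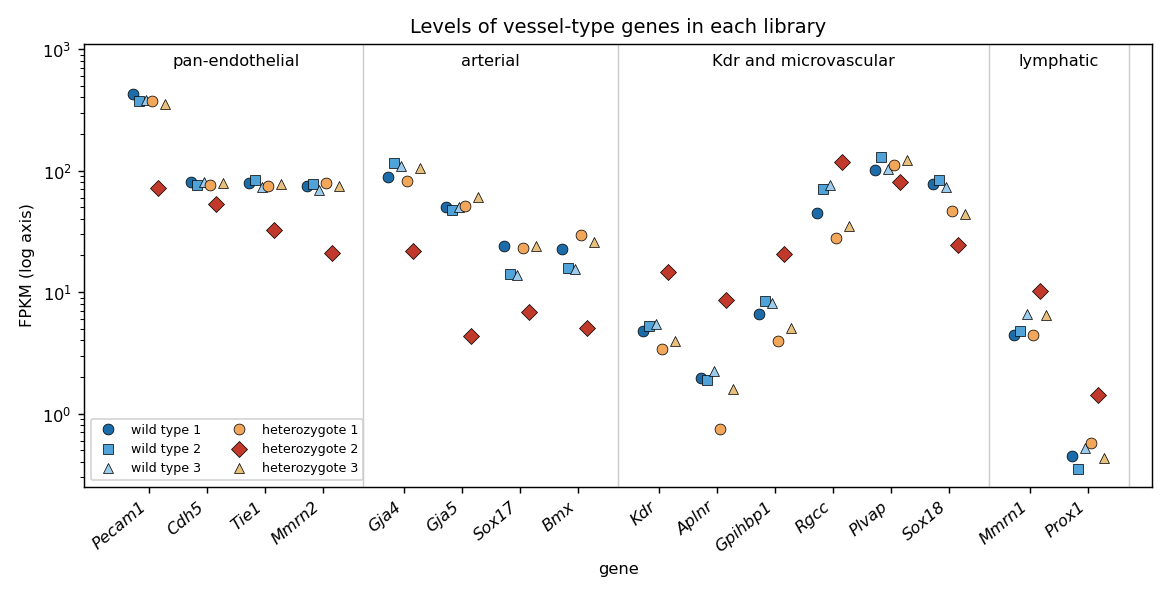
FPKM of vessel-type genes in each library, on a log axis, with 1 symbol per library. Heterozygote replicate 2 (red diamond) is the lowest library for all arterial genes shown, and the highest for Kdr, Aplnr, Gpihbp1, Rgcc, Mmrn1 and Prox1.

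As a sum, the 4 arterial genes stood at 20.5% of the next lowest library in heterozygote replicate 2, the lowest share of the vessel groups. By gene the share ran from 9.20% (Gja5) through 26.7% (Gja4) and 32.7% (Bmx) to 49.99% (Sox17). Members outside this group also lay in that range, such as Pecam1 at 20.4%, Klf2 at 22.6% and Vwf at 27.1%, while others did not, such as Cdh5 at 69.5%. A low share in that library was thus not particular to the arterial genes. Gja5, connexin 40 (ENSMUSG00000057123, chromosome 3, 96904693 to 97077416), was at 50.5, 47.3 and 50.4 FPKM in the wild-type libraries, against 51.3, 4.35 and 60.4 FPKM in the heterozygous ones. Heterozygote replicate 2 had 9.20% of the next lowest library, the lowest share of any member. Gja4, connexin 37, was at 89.1, 116 and 109 FPKM in the wild-type libraries, against 81.8, 21.8 and 104 FPKM in the heterozygous ones. Bmx, a cytoplasmic kinase of arterial endothelium, was at 22.6, 15.6 and 15.4 FPKM in the wild-type libraries, against 29.3, 5.03 and 26.0 FPKM in the heterozygous ones. These 3 genes and Sox17 together summed to 186 to 193 FPKM in the wild-type libraries, against 186, 38.1 and 214 FPKM in the heterozygous ones. Their median log2 fold change was -0.49 with all libraries and 0.32 without heterozygote replicate 2, so its direction turned with that library. Without it Bmx was at a log2 fold change of 0.62 (SE 0.18, limma adjusted p = 0.292), the highest of the set together with Cldn5, also at 0.62 (SE 0.25, limma adjusted p = 0.351).

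The 6 microvascular genes, Sox18, Aplnr, Plvap, Rgcc, Gpihbp1 and Aqp1, went both ways in heterozygote replicate 2, which was the highest library for 4 of them and the lowest for Sox18 and Plvap. Gpihbp1 was at 6.66, 8.38 and 8.17 FPKM in the wild-type libraries, against 3.95, 20.5 and 5.02 FPKM in the heterozygous ones. Rgcc, a cell cycle regulator of capillary endothelium, was at 44.5, 70.4 and 76.6 FPKM in the wild-type libraries, against 28.0, 119 and 35.2 FPKM in the heterozygous ones. For these genes, as for Kdr and Aplnr, heterozygote replicate 2 was the highest library and heterozygote replicates 1 and 3 were the lowest. Aqp1 was at 151 FPKM in heterozygote replicate 2 and at 88.6 to 119 FPKM in the others, while Plvap, at 80.1 FPKM there, was slightly below its range of 100.4 to 130 FPKM elsewhere. The lymphatic gene Mmrn1, a multimerin that platelets also hold, was at 4.45, 4.82 and 6.64 FPKM in the wild-type libraries, against 4.40, 10.2 and 6.43 FPKM in the heterozygous ones. Prox1, the master factor of lymphatic fate, was at 0.450, 0.350 and 0.516 FPKM in the wild-type libraries, against 0.574, 1.43 and 0.431 FPKM in the heterozygous ones, which is 54 to 88 reads in 5 libraries and 207 reads in heterozygote replicate 2. The lymphatic genes Lyve1 and Pdpn were not high there. Lyve1, a hyaluronan receptor chosen after its values were seen, was at 23.3 FPKM against 22.1 to 29.1 FPKM in the other libraries, and Pdpn, podoplanin, was lowest there at 9.46 FPKM against 9.98 to 13.2 FPKM. Of the 8 further lymphatic and venous genes tested, that library was the highest for 1 and the lowest for 4 (26.4% and 34.3% of all genes). Ackr1 was the high one, at 5.52 against 2.30 to 3.91 FPKM. Untested Reln was also highest there, at 1.45 against 0.454 to 0.835 FPKM. Ccl21a was at 60.1 FPKM against 29.0 to 62.1 FPKM. Ackr1 and Reln were added after their values were seen.

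Values were also set against Cdh5, which was itself less low than most members in heterozygote replicate 2, for genes already seen to be low or high there. The ratio of Gja5 to Cdh5 was 0.623 to 0.633 in wild type, 0.671 and 0.758 in heterozygote replicates 1 and 3, and 0.0827 in heterozygote replicate 2. The ratio of Pecam1 to Cdh5 was 4.72 to 5.32 in wild type, 4.90 and 4.43 in heterozygote replicates 1 and 3, and 1.37 in heterozygote replicate 2. That of Kdr was 0.0604 to 0.0701 in wild type, 0.0449 and 0.0496 in heterozygote replicates 1 and 3, and 0.276 in heterozygote replicate 2. That of Rgcc was 0.557 to 0.946, 0.366 and 0.442, and 2.25, in the same order. Of the other ratios to Cdh5 in that library, only some lay within the range of the other libraries. Examples were 1.52 for Plvap (1.26 to 1.71), 0.112 for Sox7 (0.102 to 0.145) and 0.348 for Erg (0.329 to 0.517). Most lay outside that range. Vwf at 0.524 (1.26 to 1.59) and Gja4 at 0.414 (1.07 to 1.53) were below it, and Aqp1 at 2.87 (1.11 to 1.57) was above it.

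The promoters of 4 genes with opposite values in heterozygote replicate 2 are shown, Gja5 and Tie1 low and Kdr and Rgcc high there. Each runs 5′ to 3′ on the strand of the gene, from 250 bases before to 50 bases after the RefSeq start (GRCm38.p6). Capitals mark AGGAAG, a form of ETS factor site, or its reverse complement CTTCCT. Other forms of ETS sites were not searched and are left unmarked. The windows are chr3:97032152-97032451 on the plus strand for Gja5, and chr4:118489800-118490099, chr5:75978406-75978705 and chr14:79301586-79301885 on the minus strand for Tie1, Kdr and Rgcc.
Gja5: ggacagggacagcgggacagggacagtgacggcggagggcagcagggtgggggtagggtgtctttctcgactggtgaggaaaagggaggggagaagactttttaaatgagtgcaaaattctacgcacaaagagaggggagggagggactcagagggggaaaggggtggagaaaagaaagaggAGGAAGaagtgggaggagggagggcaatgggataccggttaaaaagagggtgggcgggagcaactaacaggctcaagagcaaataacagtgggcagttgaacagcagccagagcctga
Tie1: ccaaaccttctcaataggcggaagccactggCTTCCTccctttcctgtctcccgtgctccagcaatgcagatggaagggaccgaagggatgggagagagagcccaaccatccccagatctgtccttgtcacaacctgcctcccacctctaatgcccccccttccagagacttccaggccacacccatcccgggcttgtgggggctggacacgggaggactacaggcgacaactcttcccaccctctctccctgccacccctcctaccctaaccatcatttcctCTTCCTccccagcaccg
Kdr: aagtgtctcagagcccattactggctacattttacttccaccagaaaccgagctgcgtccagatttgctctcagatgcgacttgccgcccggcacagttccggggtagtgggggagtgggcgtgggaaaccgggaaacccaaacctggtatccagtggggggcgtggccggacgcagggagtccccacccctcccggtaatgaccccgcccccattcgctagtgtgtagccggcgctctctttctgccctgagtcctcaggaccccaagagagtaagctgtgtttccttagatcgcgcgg
Rgcc: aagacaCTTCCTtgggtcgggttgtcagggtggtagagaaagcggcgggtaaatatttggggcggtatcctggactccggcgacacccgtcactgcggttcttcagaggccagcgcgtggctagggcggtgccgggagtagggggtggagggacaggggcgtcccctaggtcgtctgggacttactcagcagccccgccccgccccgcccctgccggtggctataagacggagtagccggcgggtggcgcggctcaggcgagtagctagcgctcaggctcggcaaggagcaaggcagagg
On either strand this ETS motif, AGGAAG, was found once in Gja5, 68 bases before the start, at 2 places in Tie1, at 1 in Rgcc, 244 bases before the start, and not in Kdr. Its absence from Kdr holds for this sequence only. RefSeq promoters were matched for 19 of the 37 genes, with 25 windows in all, of which 10 (40%) held the motif on either strand, against 35.4% of 32851 promoters. None of the motifs searched contains another. The SOX core ACAATG (or CATTGT) was in 3 of the 25 windows (12%, against 12.6% of all promoters), and the KLF core CCACCC (or GGGTGG) in 9 (36%, against 31.5%). These shares lie near those of all promoters, and a match is a sequence description, not a measured site.

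**Figure D3:**
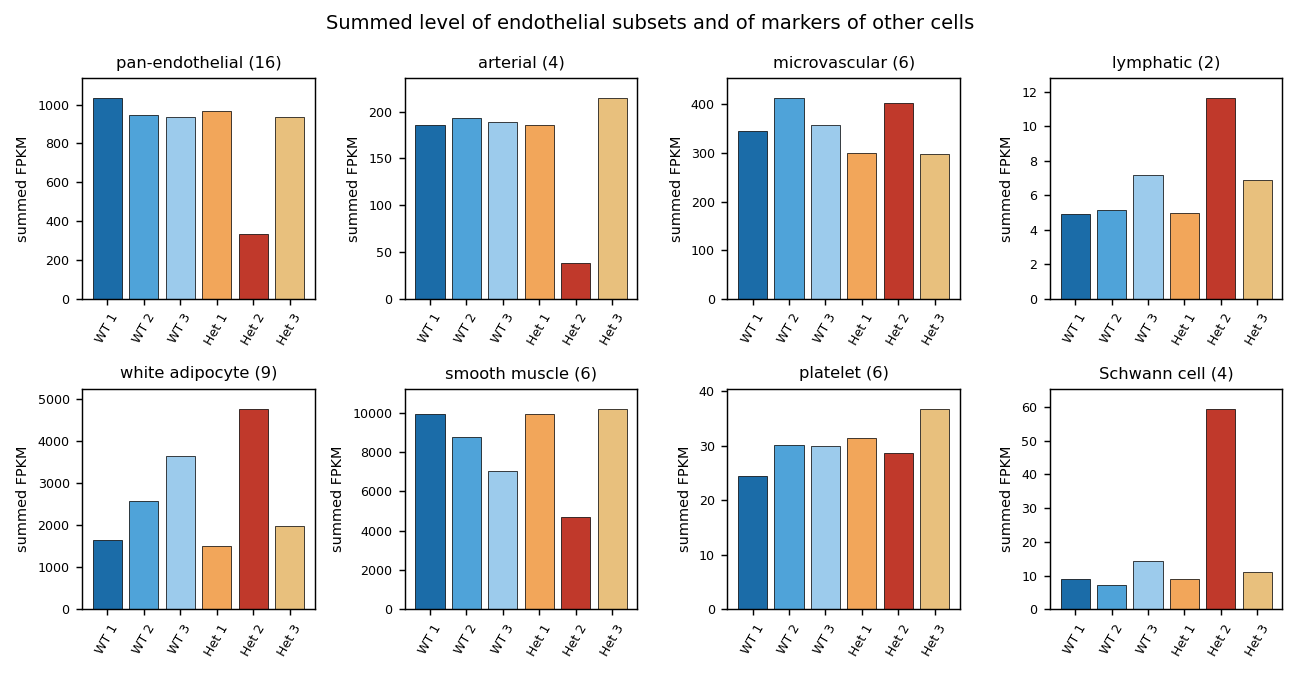
Summed FPKM in each library for 4 subsets of the endothelial genes (top) and for markers of 4 other cell types (bottom), with the number of genes in brackets. Heterozygote replicate 2 has the lowest pan-endothelial, arterial and smooth muscle sums, and the highest white adipocyte and Schwann cell sums. Its lymphatic sum of Mmrn1 and Prox1, 11.6 FPKM, is also the highest, with 10.2 FPKM of it from Mmrn1.

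The marker sums of other cells stand beside these results as follows. White adipocyte markers summed to 1646, 2586 and 3644 FPKM in the wild-type libraries, against 1499, 4765 and 1987 FPKM in the heterozygous ones. Heterozygote replicate 1 thus held the lowest and heterozygote replicate 2 the highest adipocyte sum, which is also the order of the extremes of Kdr, Aplnr, Gpihbp1 and Rgcc. As sums, smooth muscle markers in heterozygote replicate 2 were at 66.8% of the next lowest library, where the 16 pan-endothelial genes were at 35.6%. The most abundant genes weigh most in these sums, with Acta2 at 3701 of 4721 FPKM there. By gene, smooth muscle markers ran from 61.2% (Cnn1) to 98.2% (Myh11) of the lowest other library. Pan-endothelial genes ran from 20.4% (Pecam1) through 69.5% (Cdh5) to 424% (Kdr). The group also held Tek, Tie1, Emcn, Esam, Egfl7, Erg, Ramp2, Calcrl, Ecscr, Mmrn2, Ptprb, Icam2 and Clec14a. That library was the lowest for 14 of these 16 genes (34.3% of all genes), the exceptions being Kdr and Emcn. Fibroblast markers in that library, at 1737 FPKM, lay inside the range of 1468 to 2771 FPKM, and so did macrophage markers, at 184 FPKM in a range of 174 to 253. Brown adipocyte markers were at 1291 FPKM there, of which Ucp1 gave 790, and at 79.5 to 1049 FPKM in the other libraries. That library was the highest for 4 of the 6 brown adipocyte markers. It was the lowest for Dio2, at 6.11 against 7.64 to 20.1 FPKM. Pericyte markers were at 440.1 FPKM there against 561 to 787 FPKM. Leukocyte markers were at 14.3 FPKM against 5.81 to 11.2 FPKM, while erythroid markers, at 113 FPKM, lay between 96.6 and 433 FPKM. No gene of these marker lists was at 0 in all libraries. With the white adipocyte level as a covariate no member was called, and the median log2 fold change was -0.41. Beyond that fit, the part of attached fat in these values was not tested.

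Heterozygote replicates 1 and 3 alone separated from wild type for more members. Leaving out a library can only keep or raise such a count, for all genes as well. Without heterozygote replicate 2, 11 of 36 members, or 30.6%, lay below all wild-type libraries, where 12.4% of all genes did, and 4, or 11.1%, lay above, where 20.7% of all genes did. The lower members were Kdr, Flt1, Emcn, Esam, Egfl7, Sox18, Rgcc, Gpihbp1, Tal1, S1pr1 and Aplnr, and the higher members Calcrl, Ecscr, Gja5 and Bmx. The median log2 fold change in this comparison was -0.59 for the 6 microvascular genes, 0.32 for the 4 arterial genes and 0.00 for the 16 pan-endothelial genes. Rgcc had the lowest value (-0.96, SE 0.24), followed by Sox18 and Gpihbp1 (-0.67, SE 0.14). None passed (smallest limma adjusted p = 0.172), and the adipocyte sums of heterozygote replicates 1 and 3 were lower than those of wild type replicates 2 and 3. The sum of fibroblast markers was higher in both, at 2240 and 2771 FPKM against 1468 to 1777 FPKM in wild type. A large part of that sum was Col1a1, a collagen gene chosen after its values were seen, at 1100.1 and 1398 FPKM against 512 to 713 FPKM. Of the 6 fibroblast markers, 4 lay above all wild-type libraries in both. Dpt and Pi16 overlapped wild type, with Pi16 at 190 and 247 FPKM against 167 to 248 FPKM. The part of these other cells in the comparison was not tested.

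**Figure D4:**
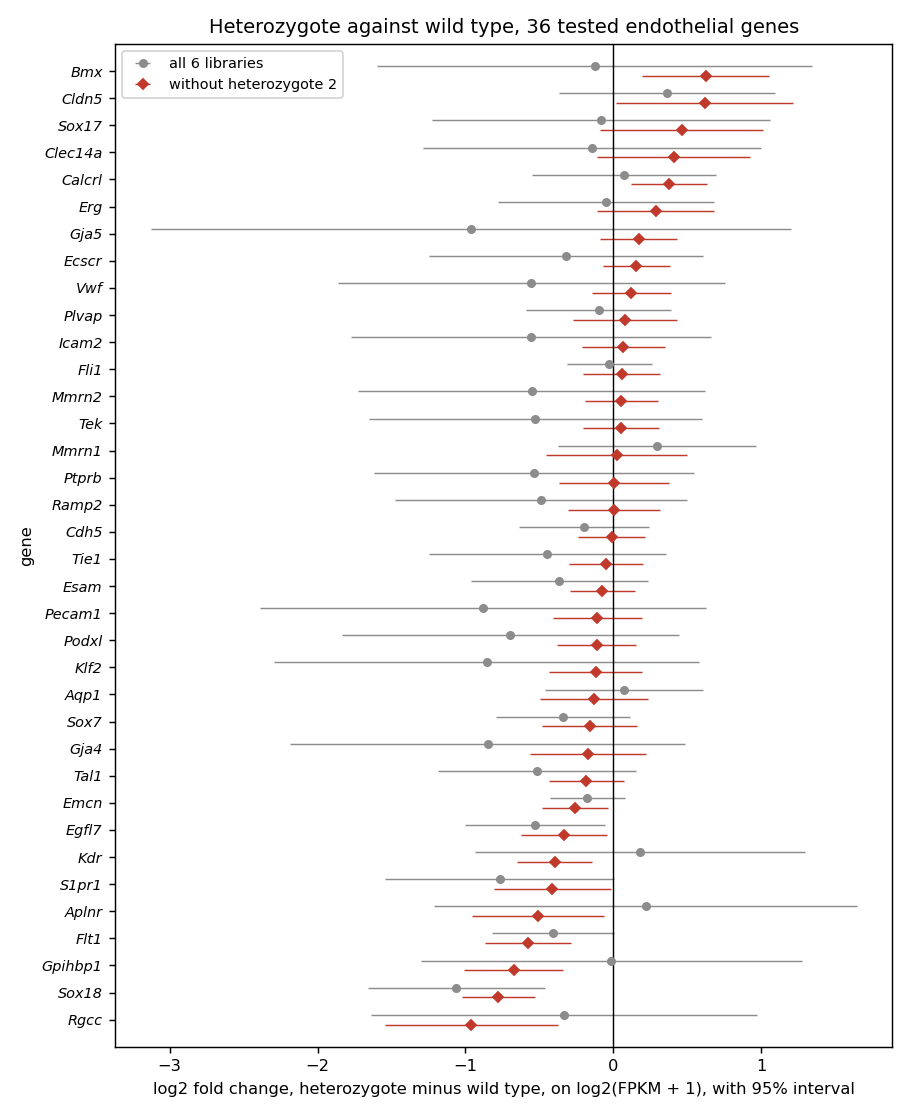
Log2 fold change of heterozygote minus wild type with its 95% interval for the 36 tested endothelial genes, with all 6 libraries (grey circles) and without heterozygote replicate 2 (red diamonds). The intervals are shorter without that library for most genes, Sox18 lies below 0 in both, and Kdr and Aplnr change sign.

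Other genes of the endothelium, outside the set, gave 0 calls among 36 tested, with 6 lower and 0 higher without overlap, where 5.12% of all genes were lower and 7.8% higher. The median log2 fold change of these genes was -0.21, and -0.09 without heterozygote replicate 2, against 0.01 and 0.03 for all genes. Nos3, the endothelial nitric oxide synthase, was at 47.0, 66.5 and 62.5 FPKM in the wild-type libraries, against 40.8, 11.8 and 39.2 FPKM in the heterozygous ones (limma log2 fold change -1.09, SE 0.47, with adjusted p = 0.770). Heg1, a transmembrane receptor of endothelial junctions, was at 72.7, 63.0 and 73.3 FPKM and at 54.9, 17.3 and 47.3 FPKM. Thbd, the anticoagulant thrombomodulin, was at 84.4, 96.3 and 109 FPKM and at 75.5, 37.7 and 69.1 FPKM. Nrp1, a VEGF coreceptor, was at 15.6, 14.1 and 14.8 FPKM and at 12.6, 11.5 and 11.5 FPKM, with little spread (limma log2 fold change -0.30, SE 0.09, with adjusted p = 0.637). Acvrl1 and Notch1, receptors for BMP9 and for Delta and Jagged ligands, had log2 fold changes of -0.53 and -0.60. Without heterozygote replicate 2 the log2 fold change was -0.14 for Acvrl1, -0.38 for Notch1, -0.53 for Nos3, -0.44 for Heg1 and -0.40 for Thbd. These 6 are the genes of that list whose groups did not overlap. The lowest library was heterozygote replicate 2 for 5 of them, and heterozygote replicate 3 for Nrp1.

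Among 17 tested ligands 0 were called, and the 4 with the smallest p had log2 fold changes of -0.42 (Pgf), 0.46 (Angpt2), -0.65 (Angptl4) and 0.19 (Angptl2). Only Angptl2 separated the groups, at 20.5 to 21.8 FPKM in wild type and 23.1 to 26.0 FPKM in heterozygotes. Vegfa, the ligand of Kdr and Flt1, was added after its values were seen. It was at 32.8, 35.99 and 50.2 FPKM in the wild-type libraries, against 19.8, 65.9 and 22.8 FPKM in the heterozygous ones, so its lowest and highest libraries were those of Kdr. Angpt2, a TIE2 ligand, was at 9.53, 6.74 and 6.70 FPKM in the wild-type libraries, against 12.3, 8.06 and 12.4 FPKM in the heterozygous ones, again with wild type replicate 1 nearest to heterozygote replicates 1 and 3.

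Further capillary, lymphatic and activation genes were also without a call. Over all genes, 5.12% were lower and 7.8% higher without overlap. Of 10 capillary genes, Meox2, a homeobox factor of capillary endothelium, was higher and Slc9a3r2, a scaffold protein, lower without overlap (log2 fold changes 0.44 and -0.79), and Cd36 and Fabp4, which adipocytes also express, had -0.68 and -0.57. Heterozygote replicate 2 was the highest library for 8 of the 10 and the lowest for 1 (26.4% and 34.3% of all genes). When it was left out, 6 lay below all wild-type libraries and 1 above (12.4% and 20.7% of all genes). Without heterozygote replicate 2 Slc9a3r2 had -0.44, Cd36 -1.40 and Fabp4 -1.23. Car4, a carbonic anhydrase of capillaries chosen after its values were seen, was at 4.48, 5.18 and 5.39 FPKM in the wild-type libraries, against 1.62, 13.4 and 2.14 FPKM in the heterozygous ones, which is the pattern of Gpihbp1. Of 8 lymphatic and venous genes, Ccl21a separated the groups at 29.0 to 35.6 and 36.3 to 62.1 FPKM (limma log2 fold change 0.67, SE 0.22, with adjusted p = 0.689), but this chemokine gene has near-identical copies and its value is uncertain. Ephb4, Vcam1 and Pdpn had log2 fold changes of -0.25, -0.94 and -0.19. When heterozygote replicate 2 was left out, the values were -0.12, -0.25 and -0.12. Of 7 tested activation genes, the chemokine Ccl2 and the adhesion molecule Icam1 were lower without overlap (log2 fold changes -0.75 and -0.94), and Esm1 had -0.64. Without heterozygote replicate 2 Icam1 had -0.46 and Esm1 -0.40. Selp, chosen after its values were seen, was at 2.26 FPKM in heterozygote replicate 2 and at 11.6 to 15.0 FPKM in the other libraries.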

How the data were processed

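Poly(A)-selected RNA of 6 aortic libraries was analysed, 3 per genotype. The deposited files hold FPKM values that the authors calculated. The unit was read from the values: multiplied by the exon length in GENCODE release M21 (GRCm38), 95.0% to 95.5% of values of up to 20 reads were whole reads within 0.01. Per the submitters' processing notes, GRCm38 was the build and the tools included TopHat2, HISAT2 2.1.0 and Bowtie2 2.2.3, with no role stated. For the counter and its annotation, nothing is stated in the sources used here. Replicate numbers follow the sample titles. The headers inside the heterozygote files number these libraries differently.

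Genes that reached 1 FPKM in 3 or more libraries entered the test with limma 3.58.1 (R 4.3.3) with a mean-variance trend on log2(FPKM + 1), a scale that understates the change of low genes, with Benjamini-Hochberg adjustment and a threshold of 0.05. The fit was checked on simulated data. Tables and plots used Python 3.11.15, pandas 2.3.3 and matplotlib 3.10.9. The members and lists were chosen with earlier results of these data known. Every member was named, and from each further endothelial list (ligands, other endothelial, lymphatic and venous, capillary, activation) the 4 genes with the smallest p and any whose groups did not overlap. Markers of other cells are given as sums, with single markers named where they weigh on a sum or depart from it. Ratios, counts and marker sums were computed from FPKM. Alternatives were another pseudocount (0.1), other filters (none, or 5 FPKM), median scaling, each library left out, a replicate block, an adipocyte covariate and limma voom on recovered reads.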

Additional observations from a re-analysis of the deposited data

How the results depend on the processing

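No member was called under any alternative run. Over all genes 0 were called (820 at an unadjusted p under 0.05 with limma, 851 with voom), and leaving out 1 library gave 0 to 1. The median log2 fold change of the members was -0.41 to -0.34 under the alternatives that keep all libraries and -0.52 to -0.03 with 1 library left out. With 1 library left out it was -0.58 to 0.0043 for pan-endothelial, -0.87 to 0.32 for arterial and -0.59 to 0.077 for microvascular genes. The count of members whose groups did not overlap, 5 with all libraries, was then 6 to 15, with fewer samples to overlap. The sign turned for 17 of 36 members without heterozygote replicate 2, and for 2 to 4 members without any other single library. For the members concerned the range with 1 library left out was -0.85 to 0.0498 for Tek, -0.40 to 0.51 for Kdr, -0.93 to 0.12 for Vwf, -0.25 to 0.28 for Erg, -0.125 to 0.055 for Fli1, -0.36 to 0.46 for Sox17, -0.76 to 0.0042 for Ramp2, -0.14 to 0.37 for Calcrl, -0.58 to 0.16 for Ecscr, -0.87 to 0.052 for Mmrn2, -0.23 to 0.078 for Plvap, -0.96 to 0.059 for Rgcc, -0.67 to 0.39 for Gpihbp1, -0.13 to 0.25 for Aqp1, -0.87 to 0.0044 for Ptprb, -0.93 to 0.066 for Icam2, -1.59 to 0.17 for Gja5, -0.54 to 0.62 for Bmx, -0.44 to 0.41 for Clec14a, -0.51 to 0.72 for Aplnr. With the white adipocyte covariate Gpihbp1 turned to 0.13. With that covariate and without heterozygote replicate 2, chosen after seeing the data, the microvascular median was -0.42 and the log2 fold change turned to 0.029 for Cdh5, 0.062 for Tek, -0.27 for Kdr, 0.079 for Fli1, 0.048 for Sox17, 0.10 for Ecscr, 0.099 for Plvap, -0.42 for Aqp1, 0.20 for Icam2, 0.081 for Gja4, 0.25 for Gja5, 0.27 for Bmx, 0.10 for Clec14a, -0.25 for Aplnr. The cause was not tested.

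Deviations from the group means correlated at 0.51, -0.09 and -0.34 between libraries numbered 1, 2 and 3, and at -0.54 to 0.55 between unlike numbers, so not every pair deviated together and the numbers were not taken to pair the samples. With a replicate block 0 genes were called, 738 had an unadjusted p under 0.05, and the median of the members stayed at -0.35, with a smallest limma adjusted p among members of 0.814. With 3 libraries per group, 1 library can set a median or a sign. Low genes such as Prox1 and Aplnr rest on few reads.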
